A study of Hevea brasiliensis with 2 samples.

Results

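Receptor-like kinases of the latex of rubber tree (Hevea brasiliensis) were examined through 97 unigenes, the contigs and scaffolds that stand for transcripts where no genome is used. The members were selected on both text and measured values. Each is one of the 6726 unigenes that the authors called different between the clones PR107 and CATAS8-79, and each has an Nr or Swissprot best hit that contains receptor-like, receptor protein kinase, receptor kinase, receptor serine/threonine or wall-associated. Rows that also named brassinosteroid, ethylene, auxin or cytokinin were left out, which removed 2 of 99. The members make up 1.44% of the called unigenes, and the whole table holds 51192.

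The study compared latex, the cytoplasm of laticifer cells that is expelled by tapping, of clone PR107 with that of clone CATAS8-79, which the sample labels spell RY8-79. For each clone, latex that 5 untreated virgin trees gave at tapping 1 was mixed into 1 library. Both clones were 7 years old by the methods but 3 years old by the labels. CATAS8-79 is a hybrid clone that has PR107 among its ancestors. A pool of trees read once gives no spread between trees, so no difference here has a replicate check, and every interval covers counting error only. In a bulk sample, fewer cells of a type and less RNA per cell cannot be told apart.

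Receptor-like kinases are membrane proteins of plants that carry an extracellular domain, a single membrane span and a cytoplasmic serine/threonine kinase. The extracellular domain names the subfamily. Leucine-rich repeat (LRR) receptors bind mostly peptides and steroids, lectin receptors have domains related to sugar-binding proteins, wall-associated kinases contact pectin, and cysteine-rich receptors carry secreted domains of conserved cysteines. Binding brings a receptor together with a co-receptor, often a SERK protein, and cytoplasmic kinases, NADPH oxidases and small GTPases carry the signal on. In plants at large these receptors act in growth, in sensing of the cell wall and in immunity.

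By the words of the best hits, 49 unigenes were LRR receptors, 10 were cysteine-rich, 9 wall-associated and 4 lectin receptors. By these words another 6 fell in the CrRLK1L group around FERONIA and 2 in the proline-rich PERK group. The LysM group and the thaumatin-like PR5K group had 1 each, and 15 members had no word that gave a subfamily. The label held for most but not all members. Unigene12048 and Unigene2535 matched through an older name of LanC-like proteins, which are not kinases, and Unigene36647 is named a protein that binds a receptor-like kinase. The Nr and Swissprot texts put 6 members into different subfamilies, and Swissprot was followed. Unigenes with the same Swissprot hit could still be placed apart. Unigene39038 had no subfamily word but shares the hit ZmPK1 with the lectin member Unigene27862. Unigene46366 had none either but shares the hit At5g39020 with the PR5K member Unigene46863. No genome was used, so no member has a chromosome position.

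In units of 1000000 counted reads, the library of PR107 held 6.87 and that of CATAS8-79 held 6.92. The members took 1.68 of every 1000 reads in PR107 and 1.64 in CATAS8-79. A word search for defining markers of latex covers only unigenes with best-hit text, where it found 1, the small rubber particle protein Unigene823, with 274 reads in PR107 and 51 in CATAS8-79. Through identifiers that the study names, the latex allergen Hev b 7 (Unigene37703) had 422 reads in PR107 and 397 in CATAS8-79, and Hevea rubber transferase 2 (Unigene37088) had 6 in PR107 and 24 in CATAS8-79. Of leaf markers, a Rubisco small chain (Unigene43787) had 256 reads in PR107 and 71 in CATAS8-79, and a chlorophyll-binding protein (Unigene12717) had 38 in PR107 and 147 in CATAS8-79. The part of other cells in the values below was not tested.

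The receptor unigenes were split evenly between the clones. Of the 97, 48 had the higher RPM (reads per 1000000 counted reads) in PR107 and 49 in CATAS8-79. Among all 6726 unigenes with best-hit text, 3709 (55.1%) were higher in PR107 and 3017 in CATAS8-79. Every direction here follows the clone numbers in the column names, although the totals per direction in the text of the study stand the other way round. Together the members had 11515 reads in PR107 and 11338 in CATAS8-79, a log2 ratio of 0.03 (interval -0.00 to 0.07). The sum depended on few unigenes, at 0.20 (interval 0.16 to 0.24) without the most read member and -0.06 (interval -0.10 to -0.02) without the LanC-like pair. Unigene26566 alone, with 963 reads in PR107 and 19 in CATAS8-79, has a wider gap than the sums. Each member differs at least about 2-fold, since that fold chose them. In a two-sided Fisher's exact test run on all 51192 unigenes, with FDR ≤ 0.001 and |log2 ratio| ≥ 1, 94 of the members passed, 47 higher in each clone. Of all unigenes 12.8% passed, 7.14% higher in PR107 and 5.7% higher in CATAS8-79. As the same contrast chose the members, nothing is read from these counts.

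**Figure D1:**
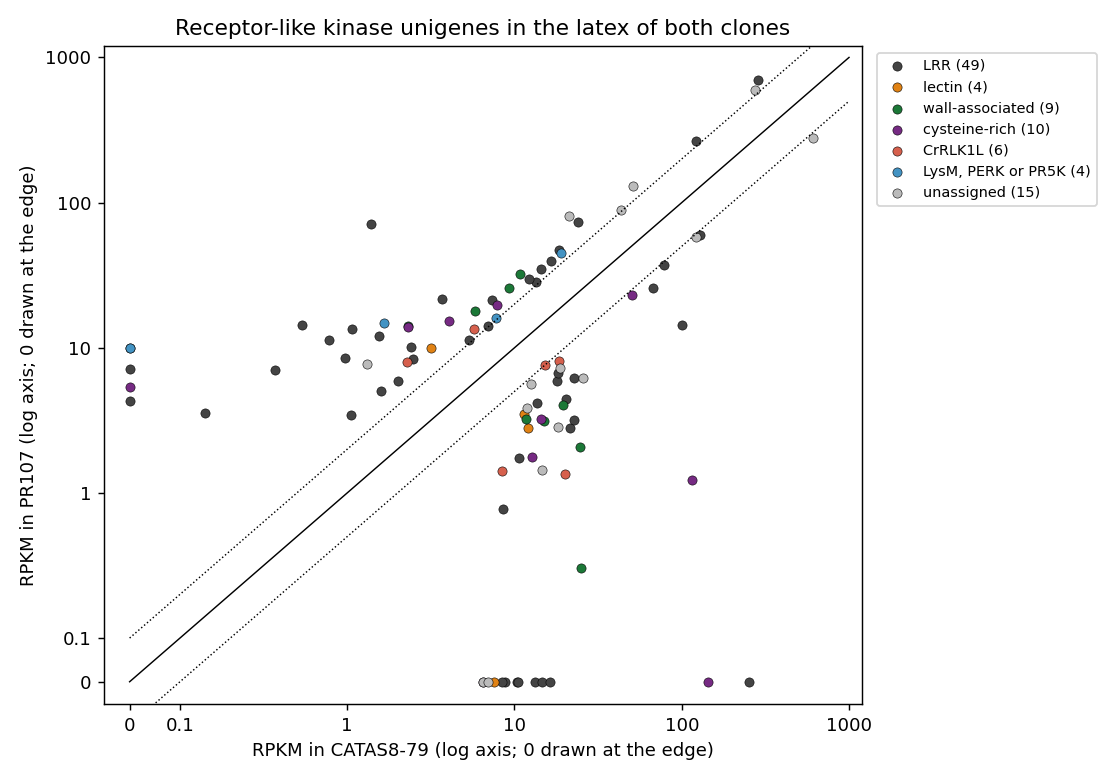
RPKM of each of the 97 receptor-like kinase unigenes in PR107 (vertical, log axis) against CATAS8-79 (horizontal, log axis), coloured by subfamily, with the line of equal values and dotted lines at a 2-fold difference. Points lie on both sides in nearly equal numbers, 48 above the line and 49 below it, and 18 unigenes lie on an edge because they had 0 reads in a clone.

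The members just inside the fold threshold were Unigene13174, Unigene24715 and Unigene1399, with log2 ratios of -1.01, 1.03 and 1.04. On the FDR side, 3 members in the authors' table did not pass the Fisher fit. These were Unigene24715 with 77 reads in PR107 and 38 in CATAS8-79, Unigene8405 with 6 in PR107 and 27 in CATAS8-79, and Unigene33550 with 9 in PR107 and 33 in CATAS8-79. Unigenes outside the authors' thresholds carry no best-hit text in these files, so receptors just outside could not be picked out.

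Many members were short pieces of transcripts. Their median length was 510 bp, 46 (47.4%) were shorter than 500 bp and 4 reached 2000 bp, while the median of all unigenes with best-hit text was 431.5 bp. Levels per length were modest, with a median RPKM (the RPM per kilobase of unigene) of 7.55 in PR107 and 11.9 in CATAS8-79. The same medians over all unigenes with best-hit text were 17.6 in PR107 and 15 in CATAS8-79. No member had a protein of Hevea as its Nr hit. By the species in brackets, Arabidopsis thaliana gave the Nr hit of 20 members and Glycine max that of 16. The Nr text of Unigene12194 also names Arabidopsis thaliana, but outside brackets, so it is not among the 20.

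A group of 18 members (18.6%) had 0 reads in one of the clones, 13 of them in PR107 and 5 in CATAS8-79. For all unigenes with best-hit text the share was 10.5%, with 338 at 0 reads in PR107 and 366 in CATAS8-79. The reads of these members in the other clone ran from 13 to 391. The 79 members read in both clones had a median absolute log2 ratio of 1.72, against 1.65 over the 6022 such unigenes with best-hit text. Counting a floor of 3 reads, 51 members differed at least 4-fold, 19 higher in PR107 and 32 higher in CATAS8-79. That was 52.6% of the members, against 42.6% of all unigenes with best-hit text. Of the latter, 1603 differed at least 4-fold toward PR107 and 1262 toward CATAS8-79.

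The LRR receptors were the largest subfamily. Of the 49, 28 (57.1%) were higher in PR107 and 21 in CATAS8-79, close to the 55.1% higher in PR107 among all unigenes with best-hit text. The median log2 ratio was 1.13 with counts under 3 set to 3. Summed, they had 6543 reads in PR107 and 6040 in CATAS8-79, a log2 ratio of 0.13 (interval 0.08 to 0.18). The most read member, Unigene12933, ran against the sum. Without it the log2 ratio was 0.51, and without the unigenes numbered 40000 or higher it was 0.02. The lean of the sum toward PR107 depended on Unigene26566, with 963 reads in PR107 and 19 in CATAS8-79. That gap is wider than the gap between the LRR sums. The median over all unigenes with best-hit text was 1.10.

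Unigene26566 showed the largest difference toward PR107 of all members. It had 963 reads (70.9 RPKM) in PR107 and 19 (1.39 RPKM) in CATAS8-79, a log2 ratio of 5.67 (interval 5.02 to 6.41). Its Swissprot hit is EFR, which in Arabidopsis recognises a bacterial elongation factor, and its Nr hit is the receptor kinase TRKc of rice. At 1978 bp it is also one of the longer members. The only member matched to FLS2, the flagellin receptor of Arabidopsis, lay on the other side. Unigene38965 had 0 reads in PR107 and 18 in CATAS8-79, at least 5.95-fold lower in PR107.

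Unigene51529 is matched in Swissprot to PEPR1, which in Arabidopsis binds endogenous Pep danger peptides, while its Nr hit is AM19-5p of Malus floribunda. It had 53 reads in PR107 and 2 in CATAS8-79, a log2 ratio of 4.74 (interval 2.81 to 7.82). The members matched to GSO receptors, which in Arabidopsis act in barrier formation of the embryo and the root, went apart. Unigene45710 (GSO1) had 35 reads in PR107 and 4 in CATAS8-79, and Unigene30692 (GSO2) had 0 in PR107 and 51 in CATAS8-79, at least 16.9-fold lower in PR107. The Nr hit of Unigene30692 names a resistance protein, and that of Unigene45710 is HB06p of Malus floribunda. Members matched in Swissprot to immune receptors were thus found on both sides.

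Receptors known from growth and development were also found on both sides. Unigene12194 is matched to CLAVATA1, a receptor of the shoot meristem that limits stem cell number in Arabidopsis. It had 580 reads in PR107 and 247 in CATAS8-79, a log2 ratio of 1.24 (interval 1.03 to 1.46). Unigene35551, matched to the HAESA-like receptor HSL1, had 997 reads in PR107 and 410 in CATAS8-79, and at 208 bp it had the highest RPKM of all members in PR107, 698 against 285 in CATAS8-79. Its Nr hit is another LRR kinase, NSP-interacting kinase 2, so this short piece is not assigned firmly. Unigene49607, matched to HAIKU2, a receptor that promotes endosperm growth, had 13 reads in PR107 and 0 in CATAS8-79.

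ERL1, a relative of ERECTA that acts in stomatal patterning, was the hit of a pair of short unigenes in opposite directions. Unigene48419 had 16 reads in PR107 and 0 in CATAS8-79, at least 5.37-fold higher in PR107. Unigene39609 had 2 reads in PR107 and 22 in CATAS8-79, a log2 ratio of -3.45 (interval -6.58 to -1.42). Both counts are small, and the pair together had 18 reads in PR107 and 22 in CATAS8-79. The members of the STRUBBELIG family, which acts in organ shape, were Unigene32805 with 20 reads in PR107 and 55 in CATAS8-79 and Unigene22475 with 7 in PR107 and 50 in CATAS8-79.

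The most read member was Unigene12933, matched to RCH1, named as a root homologue of CLAVATA1. It had 1003 reads (37.3 RPKM) in PR107 and 2118 (78.2 RPKM) in CATAS8-79, a log2 ratio of -1.07 (interval -1.18 to -0.96), and is 3916 bp long. It holds close to the fold threshold with the narrowest interval of the members. Of the 3 other RCH1 unigenes, Unigene40180 and Unigene40007 had 0 reads in PR107 and 39 and 28 in CATAS8-79. The Nr hits of these short pieces name resistance proteins instead, so they are not assigned firmly. Unigene46381 went the other way, with 45 reads in PR107 and 14 in CATAS8-79.

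The EXS unigenes, matched to a receptor that sets cell fate in the anther of Arabidopsis, were all higher in CATAS8-79. Unigene251 had 113 reads in PR107 and 297 in CATAS8-79, Unigene17106 had 15 in PR107 and 116 in CATAS8-79, and Unigene22850 had 19 in PR107 and 70 in CATAS8-79. Their sum gave a log2 ratio of -1.71 (interval -1.98 to -1.44). The largest LRR difference toward CATAS8-79 was that of Unigene36360, which is 224 bp long. It had 0 reads in PR107 and 391 in CATAS8-79, at least 129-fold lower in PR107, and its hits name At1g07550 and PERK1. Unigene33797, matched to At4g36180 and in Nr to a receptor-like protein, had 0 reads in PR107 and 76 in CATAS8-79. Unigene22606, with the same Swissprot hit, went the other way, with 571 reads in PR107 and 263 in CATAS8-79.

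The co-receptors of the SERK family, which pair with many LRR receptors, had 5 members. Of these, 4 were higher in PR107, beside 55.1% of all unigenes with best-hit text. Unigene44319 (SERK2) had 100 reads in PR107 and 13 in CATAS8-79, a log2 ratio of 2.95 (interval 2.12 to 3.91). The others higher in PR107 were Unigene10159 (SERK5) with 125 reads in PR107 and 52 in CATAS8-79, Unigene44347 (SERK4) with 25 in PR107 and 1 in CATAS8-79, and Unigene40540 (SERK1) with 25 in PR107 and 2 in CATAS8-79. The Nr hit of Unigene10159 is PERK1. Unigene44319, Unigene44347 and Unigene40540 are numbered 40000 or higher, where 83% of all unigenes with best-hit text were higher in PR107. The SERK unigene with the most reads lay opposite. Unigene14005 (SERK1) had 251 reads in PR107 and 539 in CATAS8-79, a log2 ratio of -1.09 (interval -1.31 to -0.87), so the 2 unigenes matched to SERK1 differ in direction.

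**Figure D2:**
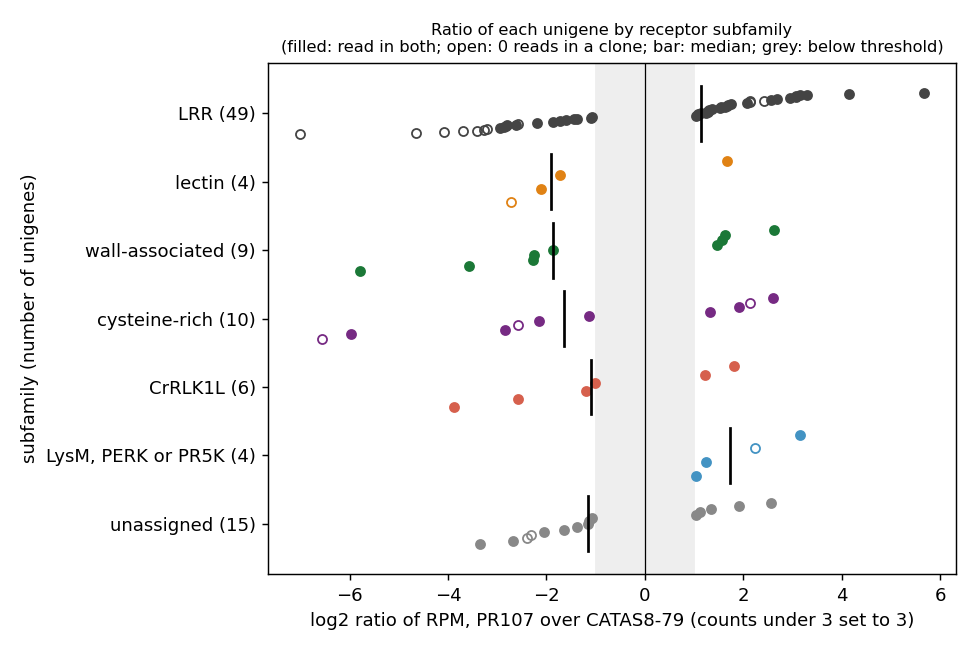
Log2 ratio of RPM, PR107 over CATAS8-79, of each member by subfamily, with counts under 3 set to 3; filled points were read in both clones, open points had 0 reads in a clone, and the black bar is the median. Every subfamily of more than 4 members has points on both sides of the empty band that the fold threshold leaves, and the LRR median lies at 1.13 while the cysteine-rich median lies at -1.65.

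The cysteine-rich receptors had more reads in CATAS8-79. Of the 10, 4 were higher in PR107 and 6 in CATAS8-79, beside 55.1% higher in PR107 among all unigenes with best-hit text. Together they had 386 reads in PR107 and 961 in CATAS8-79, a log2 ratio of -1.30 (interval -1.48 to -1.13). The lean toward CATAS8-79 came with short unigenes that were almost unread in PR107. Unigene38553 (hit CRK42, 288 bp) had 0 reads in PR107 and 287 in CATAS8-79, at least 94.9-fold lower in PR107. Unigene36936 (CRK14, 237 bp) had 2 reads in PR107 and 190 in CATAS8-79, a log2 ratio of -6.56 (interval -9.61 to -4.69). Its Nr hit is a wall-associated kinase, so the subfamily of this piece is uncertain. Both unigenes are numbered from 30000 to below 40000. In that range 79.1% of all unigenes with best-hit text were higher in CATAS8-79.

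The cysteine-rich member with the most reads was Unigene11239 (CRK8), with 152 reads in PR107 and 336 in CATAS8-79, a log2 ratio of -1.13 (interval -1.42 to -0.85). On the other side stood Unigene7436 (CRK10) with 119 reads in PR107 and 48 in CATAS8-79, Unigene46178 (CRK6) with 48 in PR107 and 8 in CATAS8-79, and Unigene14421 (CRK25) with 41 in PR107 and 11 in CATAS8-79. These 3 were 884 bp, 500 bp and 390 bp long. Also higher in PR107 was Unigene50846 (CRK19, 354 bp), with 13 reads in PR107 and 0 in CATAS8-79. The 2 members with 0 reads in PR107 were 288 bp and 399 bp long. The numbers in CRK names are those of the Arabidopsis family, in which several members respond to oxidative stress and pathogens.

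The wall-associated kinases link the cell wall to the cytoplasm and respond to pectin fragments in Arabidopsis. Of the 9 unigenes, 4 were higher in PR107 and 5 in CATAS8-79, beside 55.1% higher in PR107 among all unigenes with best-hit text. They had 384 reads in PR107 and 478 in CATAS8-79 in sum, a log2 ratio of -0.30 (interval -0.50 to -0.11). This direction depended on 1 unigene. Unigene40389, matched to wall-associated receptor kinase 5, had 2 reads in PR107 and 166 in CATAS8-79, a log2 ratio of -6.36 (interval -9.42 to -4.49). Without it the sum turned to 0.30 (interval 0.08 to 0.52).

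The kinases higher in PR107 were all of the wall-associated-like kind, as were those higher in CATAS8-79 except Unigene40389. Unigene1611 (like 9) had 98 reads in PR107 and 32 in CATAS8-79, and Unigene51570 (like 1) had 55 in PR107 and 9 in CATAS8-79. Unigene26961 and Unigene9670 share the hit wall-associated receptor kinase-like 14, with 118 and 74 reads in PR107 and 40 and 27 in CATAS8-79. A further piece with that hit, Unigene33550, went the other way. On the CATAS8-79 side, Unigene39442 (like 10) had 5 reads in PR107 and 60 in CATAS8-79, and both unigenes of like 17, Unigene51382 and Unigene34009, had 13 and 10 reads in PR107 and 63 and 48 in CATAS8-79.

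Lectin receptors were few and weakly read. Only Unigene3907, a lectin-domain receptor kinase, was higher in PR107, with 44 reads in PR107 and 14 in CATAS8-79. Among all unigenes with best-hit text, 55.1% were higher in PR107. The 3 others were Unigene25267 with 22 reads in PR107 and 73 in CATAS8-79, Unigene27862 with 12 in PR107 and 52 in CATAS8-79, and Unigene34575 with 0 in PR107 and 20 in CATAS8-79. Unigene25267 and Unigene34575 are named S-locus kinases in Nr, after the self-incompatibility receptors of Brassica. The sum of the 4 was 78 reads in PR107 and 159 in CATAS8-79, a log2 ratio of -1.02 (interval -1.43 to -0.62), and -0.61 (interval -1.12 to -0.11) without Unigene25267.

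FERONIA binds RALF peptides and monitors the cell wall during growth and pollen tube reception in Arabidopsis. It was the Swissprot hit of 5 unigenes, more than any other receptor. Unigene28292 had 18 reads in PR107 and 267 in CATAS8-79, a log2 ratio of -3.88 (interval -4.66 to -3.19), and Unigene12464 had 75 in PR107 and 173 in CATAS8-79. Unigene13174 had 58 reads in PR107 and 118 in CATAS8-79, and Unigene40262 had 6 in PR107 and 36 in CATAS8-79. The longest of them, Unigene16895 at 2164 bp, was the exception, with 200 reads in PR107 and 86 in CATAS8-79, a log2 ratio of 1.23 (interval 0.86 to 1.61).

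Summed over the 5 FERONIA unigenes there were 357 reads in PR107 and 680 in CATAS8-79, a log2 ratio of -0.92 (interval -1.11 to -0.73). Unigene42933, matched to HERK 1, a receptor of the same group that acts in cell elongation, had 45 reads in PR107 and 13 in CATAS8-79. Unigenes that share a hit may be related genes or pieces of a single gene, and reads may have been split between them, so the share of each is uncertain.

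The members with no subfamily word included some of the most read. Unigene47026, matched to the receptor-like kinase At2g47060, had 397 reads (278 RPKM) in PR107 and 880 (611 RPKM) in CATAS8-79. It is only 208 bp long and had the highest RPKM of all members in CATAS8-79. A second unigene with the same hits, Unigene10842, had 185 reads in PR107 and 390 in CATAS8-79, and the pair gave a log2 ratio of -1.11 (interval -1.26 to -0.97). Unigene1399, matched to At2g42960, had 418 reads in PR107 and 205 in CATAS8-79. The proteins that are not receptor kinases themselves were higher in PR107 and well read. Unigene36647 had 935 reads in PR107 and 435 in CATAS8-79, Unigene12048 had 907 in PR107 and 362 in CATAS8-79, and Unigene2535 had 184 in PR107 and 49 in CATAS8-79.

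The probable inactive receptor kinases, whose kinase domain is thought to lack activity, were seen in both directions too. Unigene22120 (At1g27190) had 27 reads in PR107 and 113 in CATAS8-79, Unigene6282 (At5g10020) had 49 in PR107 and 110 in CATAS8-79, and Unigene10366 (At2g26730) had 34 in PR107 and 89 in CATAS8-79. None of these had a subfamily word, so they stand outside the LRR counts whatever their extracellular domain. Unigene26117 (At5g67200) and Unigene51089 (RLK902), counted as LRR receptors through their Nr text, had 47 and 19 reads in PR107 and 14 and 1 in CATAS8-79. Unigene541 (At3g28040), an LRR receptor also named probably inactive, had 166 in PR107 and 65 in CATAS8-79.

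With Swissprot followed, the PERK, LysM and PR5K members were all higher in PR107, beside 55.1% of all unigenes with best-hit text. The Nr text also names PERK1 for members counted as LRR. Of these, Unigene36360 had 0 reads in PR107 and 391 in CATAS8-79, while Unigene10159 and Unigene51641 were higher in PR107. Unigene45003, a PERK1 hit in Nr whose Swissprot hit is a cell wall protein, had 44 reads in PR107 and 5 in CATAS8-79, a log2 ratio of 3.15 (interval 1.82 to 4.84). Unigene6415 (PERK1 in Nr, a cytoplasmic kinase in Swissprot) had 347 in PR107 and 148 in CATAS8-79. Unigene6680, named a LysM receptor kinase, the kind that binds chitin or bacterial signals, had 80 reads in PR107 and 39 in CATAS8-79, but its Swissprot hit is a mucin. Unigene46863, similar to PR5K, had 14 reads in PR107 and 0 in CATAS8-79.

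Of the 94 members with a Swissprot hit, 46 shared it with another member, under 18 hits. For 8 of these hits the unigenes were found in both directions, for 3 all were higher in PR107 and for 7 all were higher in CATAS8-79. Of all single unigenes with best-hit text 55.1% were higher in PR107, and their shared hits were not counted. Several sets higher in CATAS8-79 hold members numbered from 30000 to below 40000, where 79.1% of all unigenes with best-hit text were higher in CATAS8-79. Each set higher in PR107 holds a member numbered 40000 or higher, where 83% were higher in PR107. The 3 unigenes of At2g23950 were the largest set higher in PR107. Their 176 reads in PR107 and 64 in CATAS8-79 gave 1.47 on the log2 scale (interval 1.05 to 1.91), and Unigene50974 differed most of the 3, with 29 reads in PR107 and 2 in CATAS8-79. The 4 unigenes of At5g49770 were divided. Unigene45915 and Unigene28873 had 139 and 94 reads in PR107 and 48 and 45 in CATAS8-79, while Unigene9346 and Unigene34007 had 44 and 0 in PR107 and 204 and 32 in CATAS8-79.

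**Figure D3:**
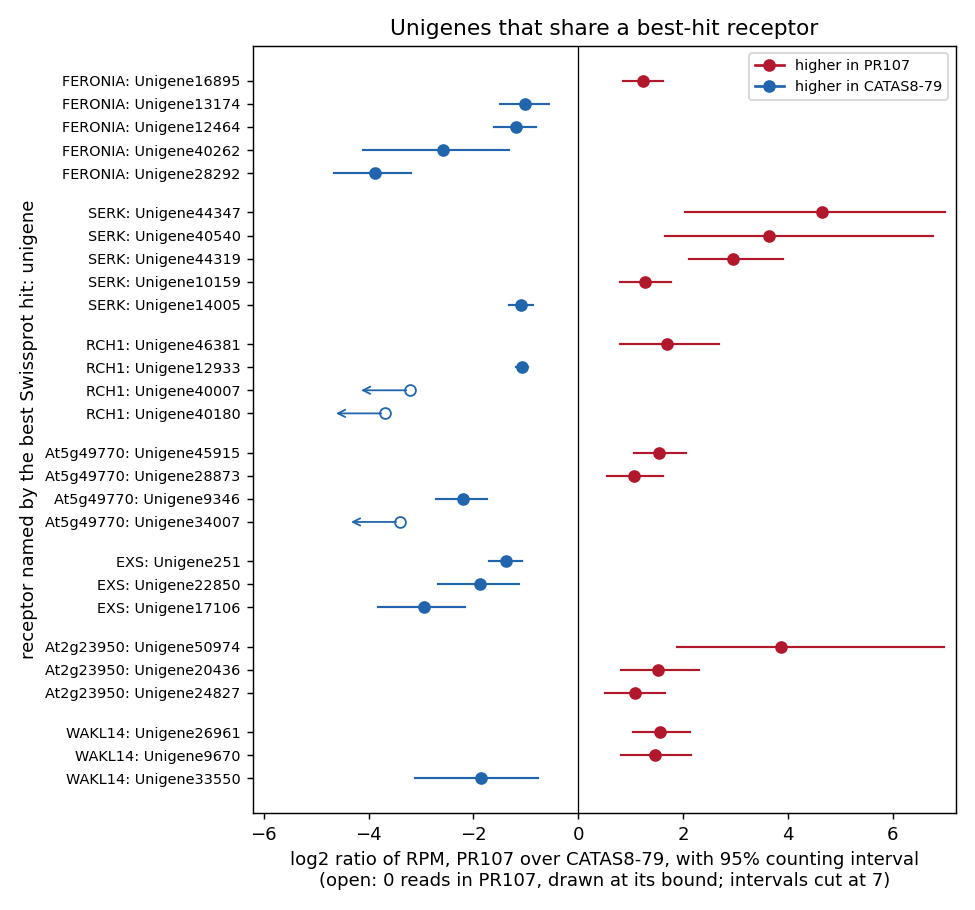
Log2 ratio of RPM, PR107 over CATAS8-79, of the unigenes that share a best-hit receptor, with 95% intervals for counting error; open points with an arrow had 0 reads in PR107 and are drawn at their bound. The 3 EXS unigenes all lie on the CATAS8-79 side and the 3 At2g23950 unigenes on the PR107 side, whereas FERONIA, SERK, RCH1, At5g49770 and WAKL14 (wall-associated receptor kinase-like 14) have points on both sides.

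The direction of a member went with its number in the deposited table. Among members numbered from 30000 to below 40000, 2 of 24 (8.33%) were higher in PR107, and among those numbered 40000 or higher, 22 of 28 (78.6%) were. All unigenes with best-hit text showed the same kind of split, with 20.9% and 83% higher in PR107 in these ranges. All 18 members with 0 reads in a clone had numbers of 30000 or higher. Of the 704 unigenes with best-hit text that had 0 reads in a clone, 300 lay in the lower of these ranges and 397 in the higher. Of the members numbered below 10000, 10 of 14 were higher in PR107, of those from there to below 20000 it was 5 of 14, and of those from 20000 to below 30000 it was 9 of 17. What the numbers follow is not given in the sources used here, and their part in the counts of direction was not tested. Without the members numbered 40000 or higher, 26 of 69 (37.7%) were higher in PR107 and 43 in CATAS8-79. All unigenes with best-hit text below that number shifted the same way, to 2203 of 4911 (44.9%) higher in PR107.

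**Figure D4:**
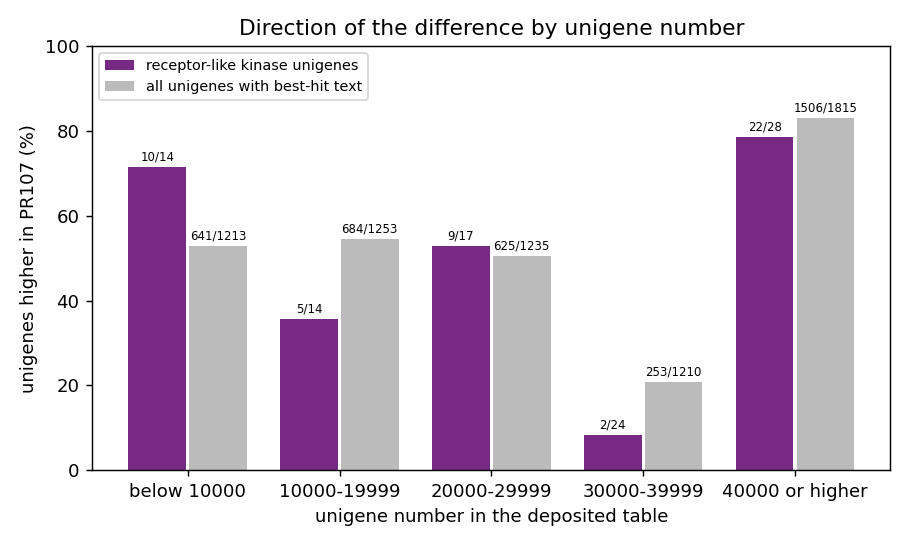
Percent of unigenes with a higher RPM in PR107 than in CATAS8-79, by range of unigene number, for receptor-like kinase members (left bar) and all unigenes with best-hit text (right bar); the counts stand above the bars. In the range from 30000 to below 40000 both bars are low, 8.33% and 20.9%, and from 40000 on both are high, 78.6% and 83%.

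Other genes of receptor kinase signalling were looked up by fixed words among the called unigenes. All 4 peptide ligands found were lower in PR107, as were 44.9% of all unigenes with best-hit text. As only called unigenes carry that text, the ligands, co-receptors and other partners that were not called could not be counted. Unigene16256, an EPF-like peptide of the kind that ERECTA receptors bind, had 185 reads (57.9 RPKM) in PR107 and 797 (248 RPKM) in CATAS8-79, a log2 ratio of -2.10 (interval -2.33 to -1.86). Unigene11578, a RALF-like peptide of the FERONIA ligand family, had 16 reads in PR107 and 113 in CATAS8-79. Unigene7474, a CLAVATA3/ESR-related peptide, had 18 reads in PR107 and 65 in CATAS8-79, and Unigene3568, a phytosulfokine precursor, had 30 in PR107 and 77 in CATAS8-79.

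Both rows that the hormone words removed are hits of BAK1, the SERK protein that serves as co-receptor of the brassinosteroid receptor and of immune receptors. Unigene39652 had 0 reads in PR107 and 465 in CATAS8-79, at least 154-fold lower in PR107, the most reads of any receptor-word unigene with 0 in a clone. Unigene24169 had 74 reads in PR107 and 36 in CATAS8-79. They thus lay on opposite sides, as the SERK1 unigenes did.

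Downstream, 12 receptor-like cytoplasmic kinases were called, 4 higher in PR107 and 8 in CATAS8-79, with Unigene6415 also a member, beside 55.1% higher in PR107 among all unigenes with best-hit text. The most read was the APK1B hit Unigene39640, with 266 reads in PR107 and 569 in CATAS8-79. The respiratory burst oxidase Unigene11595, an NADPH oxidase that makes extracellular reactive oxygen, had 211 reads in PR107 and 733 in CATAS8-79, a log2 ratio of -1.79 (interval -2.01 to -1.56). Of the ROP switch, the exchange factor Unigene11627 had 417 reads in PR107 and 1631 in CATAS8-79, while the small GTPase Unigene417 had 391 in PR107 and 117 in CATAS8-79. Of 4 ROP unigenes, 2 were higher in each clone. The U-box ligase Unigene2329, matched to the protein that marks FLS2 for turnover in Arabidopsis, had 34 reads in PR107 and 83 in CATAS8-79.

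**Figure D5:**
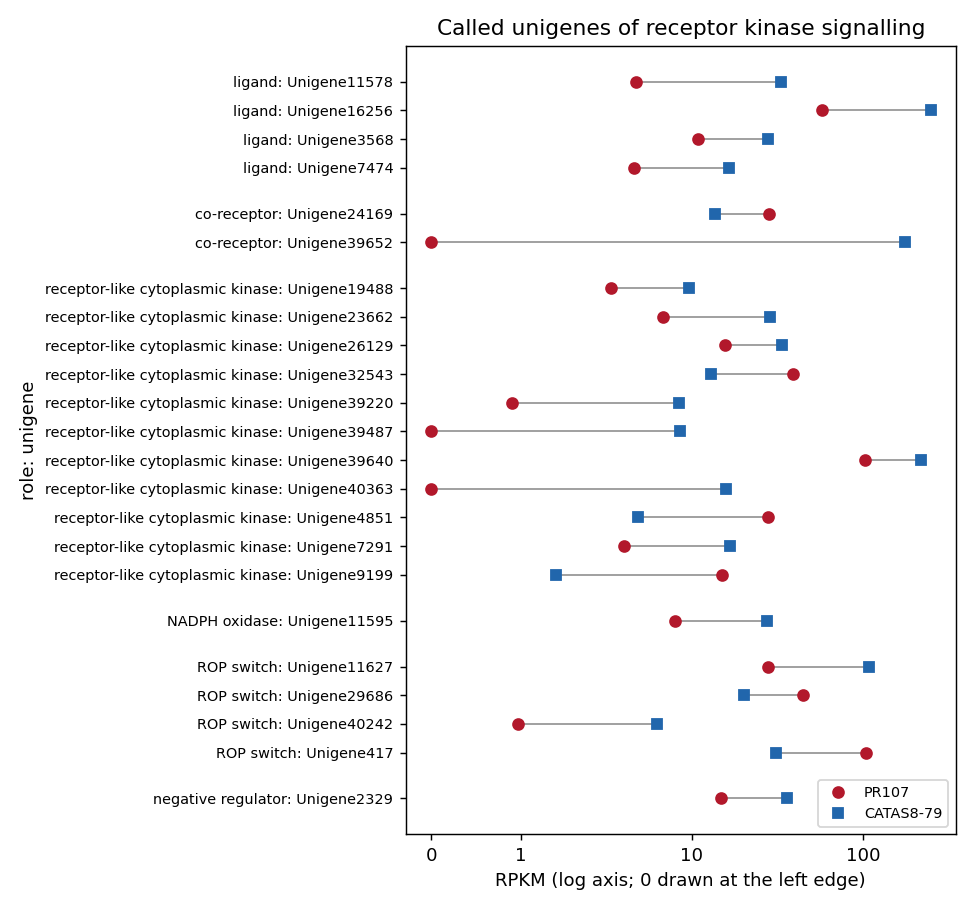
RPKM in PR107 (circles) and CATAS8-79 (squares) of the called unigenes of receptor kinase signalling that are not members, on a log axis with 0 drawn at the left edge. The 4 ligands, the NADPH oxidase and the U-box ligase have the lower value in PR107, whereas co-receptors, cytoplasmic kinases and ROP components lie on both sides.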

How the data were processed

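Latex RNA of PR107 and CATAS8-79 was sequenced as 1 pooled library per clone. The authors assembled the reads with SOAPdenovo (k-mer 29) and deposited raw read counts per unigene, which sum to 6867351 in PR107 and 6919776 in CATAS8-79. They also deposited RPKM, though the methods speak of TPM. The authors' ratio, p-value and FDR columns were not used, except that their table of called unigenes carries the best-hit text. Its counts are those of the full table. The mapping of the library names to the clones follows the numbers in them. The text of the study gives its totals of unigenes per direction the other way round. As a check of the mapping, the 34 unigenes for which that text names the clone with more transcript were looked up, and 33 had the higher RPM in the named clone (11 of 11 for PR107 and 22 of 23 for CATAS8-79). Many of these were called from the same libraries, so the check tests the labels only.

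Members were found by the stated words. The members, lists and subfamily words were chosen with earlier results of these data known, and members beyond the fixed naming rule (the most read and most different of each subfamily, and receptors of known role) were named after their values were seen. Fisher's exact test, two-sided and with Benjamini-Hochberg adjustment over all 51192 unigenes, was run only to give background shares. The test compares the libraries, not the clones, and with 1 library per clone edgeR's quasi-likelihood model could not be fitted. The script was tested on simulated data. Ratios are PR107 over CATAS8-79 of RPM, with 95% Clopper-Pearson intervals. Reads carry no molecular identifiers and are not independent molecules. Against 0 reads a bound was computed with a floor of 3 reads, an RPM of 0.437 in PR107 and 0.434 in CATAS8-79. Alternatives covered scaling (TMM of edgeR, median ratio of DESeq2), edgeR's exact test at assumed coefficients of variation, filters, words and ways to sum. Of 50196 RefSeq genes of H. brasiliensis, 0 matched a member's identifier, and no sequence was used here. Scaling used DESeq2 1.42.0 and edgeR 4.0.16 under R 4.3.3. Tests and figures used scipy 1.17.1, matplotlib 3.10.9, pandas 2.3.3 and numpy 2.4.6 under Python 3.11.15.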

Additional observations from a re-analysis of the deposited data

How the results depend on the processing

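The counts of members passing both thresholds, 94 in all with 47 higher in each clone, stayed within 1.5 times under TMM (89, with 40 higher in PR107 and 49 in CATAS8-79), median-ratio scaling, the read filter, kinase words, Swissprot text alone and merged Nr hits. In the order all, PR107 and CATAS8-79, they were 50, 28 and 22 for unigenes of 500 bp or more, 41, 21 and 20 with Nr text alone, 50, 19 and 31 at a |log2 ratio| of 2 or more, and 66, 25 and 41 without numbers of 40000 or higher. The exact test of edgeR gave 22, 5 and 17 at an assumed biological coefficient of variation of 0.2, and 6, 1 and 5 at 0.4. The summed log2 ratio of LRR members (0.13) was 0.23 with RPKM summed, 1.13 as a median, 0.51 without the most read member, 0.20 with Nr text first and 0.02 without numbers of 40000 or higher. For lectin members (-1.02) it was -1.91 as a median and -0.61 without the most read member. For wall-associated members (-0.30) it was -1.86 as a median, -0.78 with Nr text first, and turned to 0.30 without the most read member and to 0.40 without numbers of 40000 or higher. For cysteine-rich members (-1.30) it was -2.10 with RPKM summed, -1.65 as a median, -0.91 with Nr text first and -1.54 without numbers of 40000 or higher. Fewer members enter most of these settings, and otherwise the cause was not tested. The scaling factors moved all log2 ratios by -0.05 (TMM) and -0.03 (median ratio). No paired analysis was possible because each clone has 1 library, and none could be left out. Low reads limit the members with wide intervals.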
